A study of Oryza sativa Indica Group with 12 samples.

Results

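Bins of 50 kb in which no chromatin loop had an anchor were collected from the rice varieties MH63 and ZS97. In each variety, chromosomes 1 to 12 were cut into bins from the first base to the last base covered by any anchor, and a bin was kept when no anchor of the H3K4me3, RNAPII or H3K9me2 list overlapped it by even 1 bp. The bins were therefore chosen by the anchors themselves, so that the absence of anchors inside them is not a result, and their number, chromosomes, position and runs are given as a description with no test. They were 2467 of 14126 bins in all, 1272 of 7190 in MH63 and 1195 of 6936 in ZS97.

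ChIA-PET joins the ends of DNA fragments that were held together in the nucleus after pulling down the chromatin that carries a chosen protein or histone mark, and each sequenced pair of ends is a paired-end tag (PET). The samples were young leaves of 2-week-old seedlings of MH63 and ZS97, the parents of a widely grown Chinese hybrid, raised in a phytotron and dual cross-linked before the libraries were made. Neither variety carried a treatment or an introduced mutation, and each had libraries for H3K4me3, RNAPII and H3K9me2 in 2 biological replicates, 12 libraries in all. Loops were called on the 2 replicates together, so each variety and target had 1 list and no spread between replicates could be computed.

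H3K4me3 is a histone mark of the promoters of active genes, and RNAPII is the RNA polymerase that transcribes protein-coding genes. H3K9me2 is a mark of plant heterochromatin, the compact and mostly silent chromatin that is rich in transposons. A loop in these lists joins a pair of anchors, which are places where the target was bound, and the DNA between the anchors is looped out. A bin without an anchor can therefore lie under many loops while it takes part in none of them, and a bin is called spanned here when both anchors of a loop lie outside it, on opposite sides.

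The MH63 lists held 9714 loops for H3K4me3, 17160 for RNAPII and 5627 for H3K9me2, and the ZS97 lists held 12279, 13012 and 6934 in the same order. A single ZS97 H3K9me2 loop lay outside the 12 chromosomes and was left out. The lowest PET count of a listed loop was 4, except in the ZS97 RNAPII list, where it was 6. The PET counts of a list summed to between 55011 and 197758, which is a property of the listed loops and not a library depth. The lists do not hold the library totals, and depth was not used here, so the part of depth in any difference between MH63 and ZS97 was not tested.

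Bins without an anchor made up 17.7% of all bins in MH63 (Wilson 95% interval 16.8 to 18.6%) and 17.2% in ZS97 (16.4 to 18.1%). They covered 63.6 of 359.2 Mb in MH63 and 59.8 of 346.5 Mb in ZS97. The intervals here and below cover counting error only, and neighbouring bins share loops, so the bins are not independent. Many bins sat close to the rule's limit on either side. The anchored bin with the least overlap held 20 bp of anchor in MH63 and 2 bp in ZS97, and 106 MH63 and 87 ZS97 bins held less than 1000 bp. On the other side, the closest anchor to the edge of a run of kept bins lay 29 bp away in MH63 and 115 bp away in ZS97, with a median over run edges of 18.8 kb and 18.3 kb.

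Most bins without an anchor of either active target held an H3K9me2 anchor. Marks outside loop anchors are not in these lists. Over all bins, 36.7% in MH63 and 36.2% in ZS97 held an H3K9me2 anchor. Among MH63 bins with no H3K4me3 and no RNAPII anchor, 45.0% (1272 of 2828) also lacked an H3K9me2 anchor and were kept. The other 1556 held H3K9me2 anchors alone. In ZS97 the same share was 45.1% (1195 of 2649), and 1454 bins held H3K9me2 anchors alone. Bins anchored by H3K9me2 alone were thus 21.6% of all MH63 bins and 21.0% of all ZS97 bins. Bins anchored by H3K4me3 alone were fewer, at 9.93% of MH63 and 14.5% of ZS97 bins. RNAPII alone anchored 5.12% of MH63 and 2.38% of ZS97 bins. With the H3K9me2 list left out, the share of bins without an anchor was 39.3% in MH63 and 38.2% in ZS97.

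Chromosomes 11 and 12 held the largest shares of bins without an anchor in both varieties, and chromosomes 1, 2 and 3 the smallest. On chromosome 11 the share was 35.3% in MH63 (214 of 606 bins, 31.6 to 39.2%) and 37.3% in ZS97 (205 of 549, 33.4 to 41.5%). Chromosome 12 followed with 28.5% in MH63 and 29.1% in ZS97. Chromosome 3 had the lowest share, 7.05% in MH63 (52 of 738, 5.41 to 9.12%) and 8.30% in ZS97 (56 of 675, 6.44 to 10.6%). The intervals of chromosomes 3 and 11 lay far apart in both varieties. Chromosome 9 had 23.4% in MH63 and 23.8% in ZS97, and chromosome 10 had 24.4% in MH63 and 21.1% in ZS97. On the remaining chromosomes 4 to 8 the share ran between 13.3 and 19.5% in MH63 and between 11.5 and 19.2% in ZS97.

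**Figure D1:**
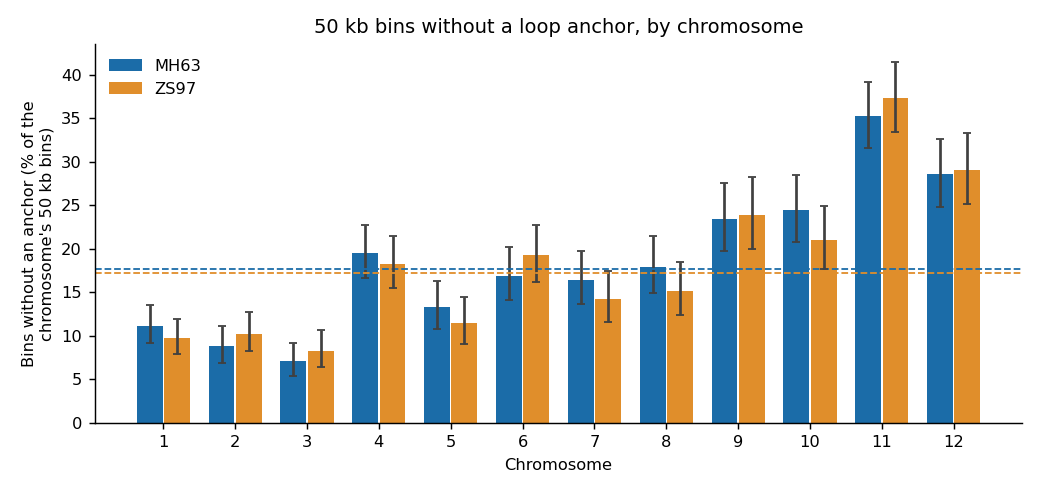
Share of 50 kb bins without a loop anchor on each of the 12 chromosomes, in percent, with MH63 and ZS97 side by side. Error bars are Wilson 95% intervals (counting error only) and dashed lines are the shares over all chromosomes, 17.7% in MH63 and 17.2% in ZS97; chromosomes 11 and 12 stand above the lines and chromosomes 1 to 3 below them in both varieties.

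With the lists as deposited, the varieties had similar shares chromosome by chromosome. The difference, MH63 minus ZS97, ran from -2.32 percentage points on chromosome 6 to 3.36 points on chromosome 10, and MH63 had the higher share on 6 of 12 chromosomes. The intervals of MH63 and ZS97 overlapped on all 12 chromosomes. The highest and the lowest chromosome also stayed in place when loops with fewer than 6 PETs were left out of all lists. Chromosome 11 then had 52.3% in MH63 and 52.8% in ZS97, and chromosome 3 had 19.4% in MH63 and 17.0% in ZS97. The varieties were less alike with this common PET limit. MH63 then had the higher share on every chromosome except chromosome 11, with 42.9% against 32.4% in ZS97 on chromosome 10. Over all bins the shares were 33.3% in MH63 and 27.8% in ZS97.

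The chromosomes with many bins of this kind had few loops of the active targets, while the density of their H3K9me2 loops was inside the range of the other chromosomes. MH63 had 10.4 RNAPII loops per Mb on chromosome 11 and 9.19 on chromosome 12, and 101.1 per Mb on chromosome 3. ZS97 had 8.13 RNAPII loops per Mb on chromosome 11 and 6.20 on chromosome 12, and 82.2 per Mb on chromosome 3. H3K4me3 loops were also sparser on chromosome 11 than on chromosome 3, with 8.65 per Mb on chromosome 11 and 46.3 on chromosome 3 in MH63, and 12.8 and 59.7 per Mb on these chromosomes in ZS97. For H3K9me2, the density on chromosome 11 was 14.7 loops per Mb in MH63, inside the range of 10.5 to 18.2 over all chromosomes. In ZS97 it was 20.6 loops per Mb, inside a range of 10.6 to 25.9. Counted by bins, 62.0% of MH63 and 65.8% of ZS97 bins on chromosome 11 had no H3K9me2 anchor, against 63.3% of all MH63 and 63.8% of all ZS97 bins. By contrast 78.1% of MH63 and 83.8% of ZS97 bins on chromosome 11 had no RNAPII anchor, against 53.8% of all MH63 and 59.4% of all ZS97 bins. Fewer loops leave fewer bins with an anchor by construction, so the density and the share of bins are not independent measures.

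**Figure D2:**
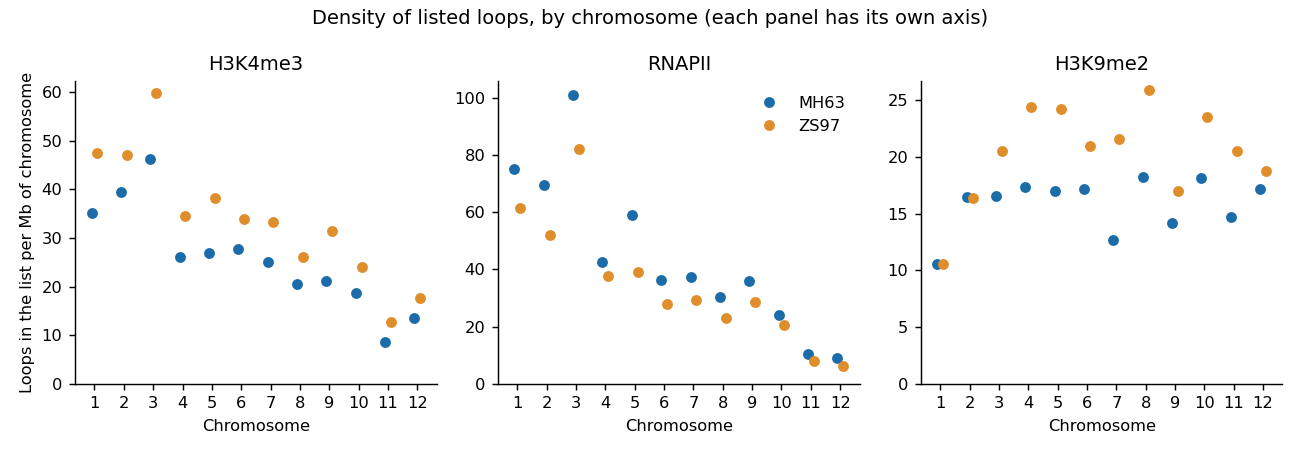
Loops in each deposited list per Mb of chromosome (from the first base to the last anchor), for MH63 and ZS97 on chromosomes 1 to 12, with 1 panel for each target and a separate vertical axis in each panel. RNAPII loops fall to 10.4 (MH63) and 8.13 (ZS97) per Mb on chromosome 11, whereas the H3K9me2 density there stays within the range of the other chromosomes.

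Along the chromosomes, bins without an anchor were least frequent toward the last bases. With each chromosome divided into 10 equal parts, 10.1% of the bins in the last part had no anchor in MH63 (73 of 725, 8.08 to 12.5%) and 11.7% had none in ZS97 (82 of 699, 9.55 to 14.3%). In part 9 the share was 13.2% in MH63 and 12.7% in ZS97. Part 1 was not low in the same way, with 18.4% in MH63 and 18.6% in ZS97. The highest pooled share was in part 3, 21.3% in MH63 (18.5 to 24.5%) and 20.9% in ZS97 (18.1 to 24.1%). The middle of the chromosomes showed a smaller dip, with 16.4% in part 5 in MH63 and 14.3% in ZS97. Because each chromosome was cut at its last anchor, the last bin always held an anchor. No centromere positions were used, so the parts were not set against them.

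The pooled profile hid wide differences between chromosomes. In part 8 the share ran from 0.0% on chromosome 2 to 60.0% on chromosome 11 in MH63, and up to 56.4% on chromosome 11 in ZS97. Chromosome 9 had its densest stretch in part 4, with 52.3% in MH63 and 61.0% in ZS97. On chromosome 4, part 5 had no anchor in 32 of 64 bins in MH63 and in 32 of 64 bins in ZS97. Part 10 of chromosome 11 held 42.6% in MH63 and 65.5% in ZS97, against 0.0% on chromosome 3 in both varieties.

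**Figure D3:**
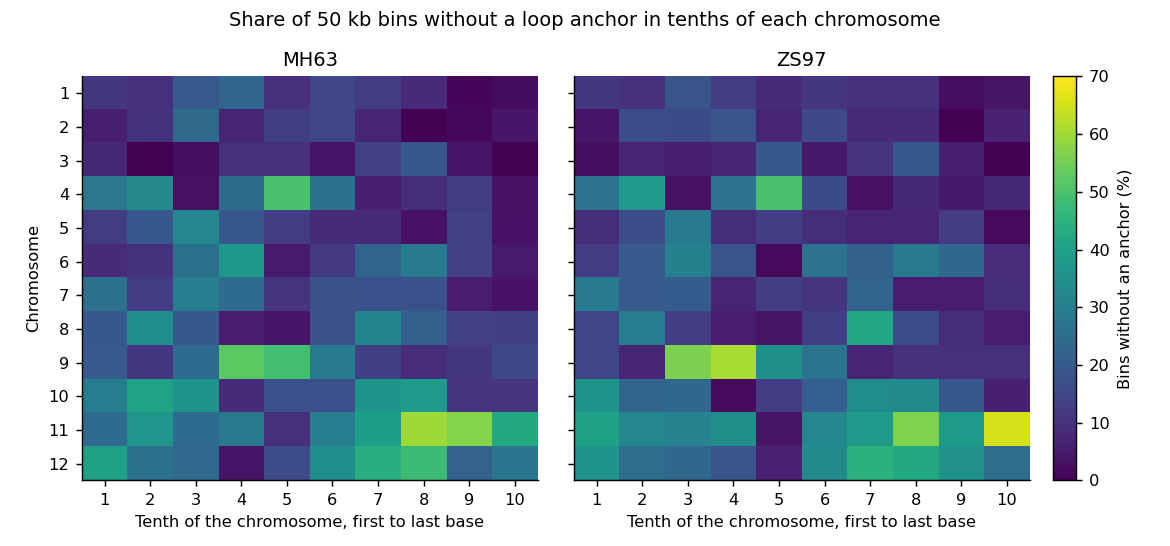
Share of 50 kb bins without a loop anchor in each of 10 equal parts of each chromosome, as a colour from 0 to 70%, with MH63 on the left and ZS97 on the right. Each cell holds the bins whose midpoint lies in that part; the brightest cells are on chromosomes 4, 9 and 11, up to 60.0% in MH63 and 65.5% in ZS97, and parts were taken in each variety's own coordinates.

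Bins without an anchor were more frequent in the first 2 Mb of the chromosomes than in the last 2 Mb. Their intervals did not overlap. These windows were not built alike, since the first began at the first base and the last ended at the last anchor. Sequence beyond the last anchor was thus not counted, whereas 2 MH63 and 3 ZS97 runs began at the first base. The part of this in the difference was not tested. In the first 2 Mb, 20.8% of MH63 bins (100 of 480, 17.4 to 24.7%) and 18.5% of ZS97 bins (89 of 480, 15.3 to 22.3%) had no anchor. In the last 2 Mb, 10.7% of MH63 bins (52 of 485, 8.27 to 13.8%) and 10.9% of ZS97 bins (53 of 485, 8.45 to 14.0%) had none. Chromosome 11 went against this order in both varieties, as did chromosome 2 in ZS97 with 5.0% in the first and 7.5% in the last 2 Mb. On chromosome 11 the last 2 Mb had 47.5% of bins without an anchor in MH63 (19 of 40) and 67.5% in ZS97 (27 of 40), against 32.5% in MH63 and 40.0% in ZS97 in its first 2 Mb. In the last 2 Mb no other chromosome exceeded 24.4% in MH63 or 19.5% in ZS97. With both ends together, 11.9% of the kept bins lay within 2 Mb of an end in MH63 and 11.9% in ZS97, against 13.4% of all MH63 and 13.9% of all ZS97 bins.

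Most bins without an anchor lay next to another of the same kind, although most runs were a single bin. MH63 had 660 runs of adjacent bins, of which 369 (55.9%) were 1 bin long, and ZS97 had 646 runs, of which 386 (59.8%) were 1 bin long. Runs of at least 2 bins held 71.0% of the MH63 bins and 67.7% of the ZS97 bins. Runs of 4 bins or more, 200 kb and longer, numbered 74 in MH63 and 62 in ZS97, and they held 32.2% of the MH63 and 29.5% of the ZS97 bins. Chromosome 11 alone had 17 of these long runs in MH63 and 20 in ZS97. Chromosome 3 had 0 in MH63 and 1 in ZS97. Together with the anchor-free bases on either side, a run stood in an anchor-free stretch with a median of 113.2 kb in MH63 and 109.8 kb in ZS97.

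**Figure D4:**
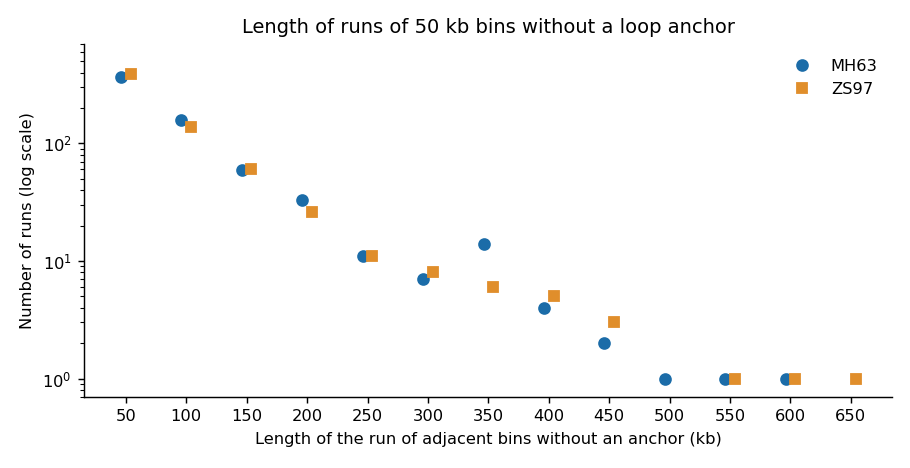
Number of runs of adjacent 50 kb bins without a loop anchor (log scale) against run length in kb, for MH63 (circles) and ZS97 (squares), with points moved slightly sideways so that both can be seen. Counts fall from 369 MH63 and 386 ZS97 runs of 50 kb to 1 run each at the longest lengths, 600 kb in MH63 and 650 kb in ZS97.

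The 5 longest runs named in each variety were on chromosomes 4, 9 and 11. In MH63 the longest was chr9:6800001-7400000 (MH63 coordinates), 600 kb or 12 bins, inside an anchor-free stretch of 682.5 kb. Its nearest anchors were an H3K9me2 anchor 48865 bp to the left and an H3K4me3 anchor 33658 bp to the right. It lay under 1 H3K4me3, 8 RNAPII and 16 H3K9me2 loops, and the shortest of them was an H3K9me2 loop of 1085 kb. The next were chr4:12650001-13200000, chr11:21450001-21950000, chr9:9300001-9750000 and chr11:24450001-24900000, of 550, 500, 450 and 450 kb. None of these 5 MH63 runs was spanned by a loop of up to 1 Mb. The chr9:9300001-9750000 run had H3K9me2 anchors as its nearest on both sides, at 4824 and 533 bp, and no H3K4me3 loop of any length passed over it.

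In ZS97 the longest run was chr4:3850001-4500000 (ZS97 coordinates), 650 kb or 13 bins, inside an anchor-free stretch of 719.4 kb. An H3K4me3 anchor lay 20555 bp to its left and an H3K9me2 anchor 48861 bp to its right. It lay under 1 H3K4me3, 19 RNAPII and 23 H3K9me2 loops, and the shortest was an H3K9me2 loop of 3419 kb. The next were chr4:14600001-15200000, chr9:5500001-6050000, chr9:7300001-7750000 and chr11:20200001-20650000, of 600, 550, 450 and 450 kb. A run of 450 kb on chromosome 12 tied with the last of these and was left out because ties went to the lower chromosome. None of these 5 ZS97 runs was spanned by a loop of up to 1 Mb either. The same H3K4me3 loop length, 26723 kb, was the shortest over both chromosome 4 runs, so a loop of that length passed over both. The genomes of MH63 and ZS97 have separate coordinates, and the runs were not matched between them.

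Loops of all lengths passed over nearly all of these bins. In MH63, RNAPII loops spanned 97.5% of bins without an anchor (1240 of 1272), against 97.2% of all bins, and in ZS97 they spanned 92.3% (1103 of 1195), against 95% of all bins. H3K9me2 loops spanned 95.5% in MH63, against 93.3% of all bins, and 93.3% in ZS97, against 93% of all bins. H3K4me3 loops spanned fewer, 81.4% in MH63 against 86% of all bins, and 76.9% in ZS97 against 81.8% of all bins. All 3 targets together spanned 78.7% of the MH63 bins without an anchor, against 81.9% of all bins, and 72.8% in ZS97, against 77.4% of all bins. Each of these shares was within 5 percentage points of that of all bins. In the median a kept bin lay under 2 H3K4me3, 19 RNAPII and 14 H3K9me2 loops in MH63 and under 1, 19 and 11 loops in ZS97. Over all bins the medians were 3, 29 and 11 in MH63 and 2, 33 and 11 in ZS97, in the same order of targets.

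For H3K4me3, the spanning by loops of any length rested on a small set of very long loops with low PET counts. Only 174 of 9714 MH63 and 80 of 12279 ZS97 H3K4me3 loops were longer than 1 Mb from outer end to outer end, and 97.7% of these in MH63 and 93.8% in ZS97 had fewer than 6 PETs. With spanning loops of at least 6 PETs, H3K4me3 loops passed over 12.2% of the same MH63 bins, against 12.1% of all bins, and over 7.78% of the same ZS97 bins, against 8.87% of all bins. Long loops were far more numerous for the other targets, at 3191 RNAPII and 829 H3K9me2 loops over 1 Mb in MH63 and 2402 and 918 in ZS97. RNAPII loops of at least 6 PETs still passed over 86.9% in MH63, against 91.7% of all bins, and 92.3% in ZS97, against 95% of all bins. H3K9me2 loops of at least 6 PETs passed over 81.1% in MH63, against 76.3% of all bins, and 80.5% in ZS97, against 80.1% of all bins. An FDR of at most 0.01 in all lists also changed which bins lacked an anchor, to 1405 in MH63 and 1299 in ZS97. Of these, H3K9me2 loops spanned 70.7% in MH63 and 72.1% in ZS97. The share of all bins was not computed for this setting.

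Loops of up to 1 Mb gave a different picture, because they passed over bins without an anchor less often than over bins in general. RNAPII loops of this length spanned 40.3% of the MH63 bins without an anchor (37.6 to 43.0%), against 54.3% of all bins, and 28.9% in ZS97 (26.4 to 31.5%), against 40.7% of all bins. H3K9me2 loops spanned 23.2% in MH63, against 26.9% of all bins, and 21.6% in ZS97, against 29.6% of all bins. H3K4me3 loops spanned 4.32% in MH63, against 6.09% of all bins, and 7.95% in ZS97, against 11.4% of all bins. No loop of up to 1 Mb passed over 40.7% of the MH63 bins without an anchor (518 of 1272, 38.1 to 43.4%), against 25.4% of all bins. In ZS97 the share under no such loop was 49.7% (594 of 1195, 46.9 to 52.5%), against 32% of all bins. Each share for spanned bins was thus below the share of all bins for every target in both varieties. Loops start and end at anchors, so spanning is not independent of the rule that chose the bins, and this difference was not tested.

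**Figure D5:**
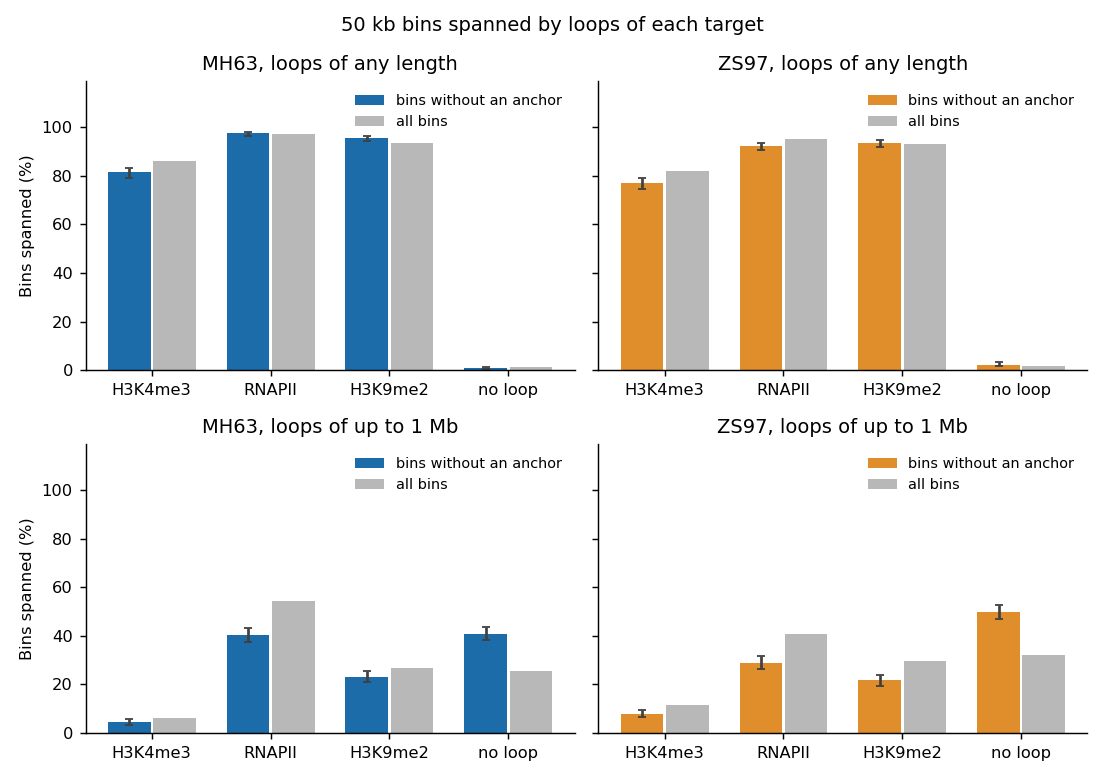
Percent of 50 kb bins spanned by at least 1 loop of H3K4me3, RNAPII or H3K9me2, or by no loop, for loops of any length (top) and of up to 1 Mb (bottom), in MH63 (left) and ZS97 (right). Coloured bars are bins without an anchor with Wilson 95% intervals (counting error only) and grey bars are all bins; for loops of up to 1 Mb the share under no loop is 40.7% against 25.4% in MH63 and 49.7% against 32% in ZS97.

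Where shorter loops did pass over such a bin, they were usually of a single target. The same counts were not made for bins with an anchor, so this is not shown to be particular to the kept bins. In MH63, 410 bins lay under RNAPII loops of up to 1 Mb alone, 223 under H3K9me2 loops alone and 18 under H3K4me3 loops alone. RNAPII and H3K9me2 loops of this length shared 66 MH63 bins, and all 3 targets shared 5. In ZS97, 255 bins lay under RNAPII loops alone, 209 under H3K9me2 loops alone and 45 under H3K4me3 loops alone. RNAPII and H3K9me2 loops shared 42 ZS97 bins, and all 3 targets shared 5.

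The varieties changed order with the PET limit. With the lists as deposited, RNAPII loops of up to 1 Mb spanned more of these bins in MH63 (40.3%) than in ZS97 (28.9%). With at least 6 PETs asked of the spanning loops in both varieties, the share was 20.2% in MH63, against 34.6% of all bins, and 28.9% in ZS97, against 40.7% of all bins. The share under no loop of up to 1 Mb was then 70.9% in MH63 and 60.2% in ZS97, also in the opposite order to that of the full lists. With this PET limit bins without an anchor still had the higher share under no loop, since it was 50.9% of all bins in MH63 and 40.3% in ZS97.

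Longer runs were less often covered by loops of up to 1 Mb. Among runs of 1 bin, 22.8% in MH63 (84 of 369) and 25.6% in ZS97 (99 of 386) lay under no such loop. For runs of 2 or 3 bins the share was 38.7% in MH63 and 46.5% in ZS97, and for runs of 4 bins or more it was 55.4% in MH63 (41 of 74, 44.1 to 66.2%) and 74.2% in ZS97 (46 of 62, 62.1 to 83.4%). A longer run needs a longer loop to span it, so part of this trend is set by length alone. RNAPII loops of up to 1 Mb spanned 22 of the 74 long runs in MH63 and 10 of the 62 in ZS97, and H3K9me2 loops spanned 11 in MH63 and 5 in ZS97. H3K4me3 loops of up to 1 Mb spanned 0 of the 74 in MH63 and 1 of the 62 in ZS97.

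The shortest loop over a run was most often an RNAPII loop in MH63, while RNAPII and H3K9me2 were close in ZS97. RNAPII also had the most loops in each variety, and the shortest loop was not computed for bins with an anchor. Of the 655 MH63 runs that any loop spanned, the shortest loop was RNAPII in 58.9%, H3K9me2 in 35.1% and H3K4me3 in 5.95%. In ZS97 the shares were 45.7, 43.5 and 10.7% of 634 runs, in the same order of targets. The ZS97 intervals of RNAPII (41.9 to 49.6%) and H3K9me2 (39.7 to 47.4%) overlapped. The shortest loop over a run had a median length of 502.0 kb in MH63 (quartiles 228.3 and 1318 kb) and 542.3 kb in ZS97 (quartiles 216.3 and 1400 kb). Both lower quartiles were thus above 200 kb, while most runs were a single bin of 50 kb.

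Seen from the loops, those of up to 1 Mb that were long enough to cover a whole bin mostly covered bins with anchors. Of all whole bins under such loops, counted once for each loop, 11.6% under H3K4me3, 8.38% under RNAPII and 8.29% under H3K9me2 loops had no anchor in MH63. In ZS97 the values were 11.9, 8.61 and 6.37%. All lay below the share of bins without an anchor in the genome, 17.7% in MH63 and 17.2% in ZS97. Spanning H3K9me2 loops of up to 1 Mb had a median of 5 PETs in MH63 and 7 in ZS97, and the other H3K9me2 loops of that length that covered a whole bin had medians of 7 in MH63 and 9 in ZS97. For RNAPII the medians did not differ, at 5 in MH63 and 8 in ZS97 in both sets.

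Individual loops over these bins varied widely in length and PET count. The H3K4me3 loop with the highest PET count over such a bin had 7 PETs in MH63, on chromosome 2, and joined anchors 85.9 kb apart at their outer ends over a single whole bin. In ZS97 it had 13 PETs, on chromosome 8, and reached 1169 kb. For RNAPII the highest had 75 PETs in MH63 and 114 in ZS97, both on chromosome 5, and they reached 22460 kb over 66 such bins and 21263 kb over 55 such bins. For H3K9me2 it had 46 PETs in MH63, on chromosome 9, reaching 508.5 kb over 2 such bins, and 96 PETs in ZS97, on chromosome 8, reaching 1355 kb over 1 such bin. By comparison the highest PET count in a whole list was 43 for H3K4me3, 817 for RNAPII and 187 for H3K9me2 in MH63, and 70, 1052 and 396 in ZS97. The loop with the most PETs thus passed over no bin of this kind in any of the 6 lists. Many loops were too short to cover any whole bin. In MH63, 433 of 9714 H3K4me3, 7608 of 17160 RNAPII and 2805 of 5627 H3K9me2 loops covered at least 1. In ZS97, 590 of 12279, 4576 of 13012 and 3712 of 6933 did. Whether the loops with the most PETs were long enough was not examined.

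The bins under the most loops were single-bin runs on chromosomes 2 and 3. In MH63 the bin chr3:8850001-8900000 lay under 383 RNAPII loops, 61 of them among the loops of up to 1 Mb, and its nearest anchors on both sides were H3K9me2 anchors 7675 and 10919 bp away. The bin chr3:26450001-26500000 lay under 24 H3K4me3 loops, the most in MH63, and under 303 RNAPII loops. The bin chr2:15000001-15050000 lay under 65 H3K9me2 loops, 18 of up to 1 Mb, with H3K9me2 anchors nearest on both sides. In ZS97 the bin chr3:10800001-10850000 lay under both the most H3K4me3 loops, 13, and the most RNAPII loops, 337. The bin chr3:19300001-19350000 lay under 87 H3K9me2 loops, 31 of up to 1 Mb, again with H3K9me2 anchors nearest on both sides. Chromosome 3, which had the lowest share of bins without an anchor, thus held 4 of the 5 bins named here.

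Bins that no loop of any length passed over were rare and lay near chromosome ends. They numbered 9 in MH63, 0.708% of bins without an anchor, against 1.34% of all bins, and 28 in ZS97, 2.34%, against 1.9% of all bins. The 9 MH63 bins formed 5 runs on 4 chromosomes and the 28 ZS97 bins formed 12 runs on 5 chromosomes, all of them within 2 Mb of an end. A loop needs an anchor on each side, so positions close to an end have fewer chances to be spanned. In MH63 the longest was chr10:1-200000, which had no anchor to its left and an H3K9me2 anchor 18759 bp to its right. In ZS97 the longest was chr11:26900001-27300000, 400 kb, with an H3K9me2 anchor 41202 bp to its left and an H3K4me3 anchor 47069 bp to its right. Of the 12 ZS97 runs, 7 were on chromosome 11, and no MH63 run of this kind was on that chromosome.

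The anchors nearest to the runs were those of both active and inactive chromatin. In MH63 the nearest anchor of a run edge was H3K9me2 at 37.6% of 1318 edges (35.0 to 40.2%), H3K4me3 at 36.2% and RNAPII at 26.3%. In ZS97 H3K4me3 was nearest at 47.5% of 1289 edges (44.8 to 50.2%), H3K9me2 at 33.6% and RNAPII at 18.9%. The median distance was between 17827 and 19886 bp for every target in both varieties. With at least 6 PETs asked of all lists the H3K9me2 share was 28.5% in MH63 and 29.4% in ZS97, so the order of the varieties was not kept.

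Active anchors on both sides were the most frequent arrangement around a run, with H3K4me3 and RNAPII pooled as active. These pooled anchors were also more widespread over all bins. They were absent from 39.3% of MH63 and 38.2% of ZS97 bins, whereas H3K9me2 anchors were absent from 63.3% and 63.8%. The arrangement was not compared with that around other bins. In MH63 the nearest anchors on both sides were H3K4me3 or RNAPII for 46.5% of 658 runs, H3K9me2 on both sides for 21.6%, and 1 of each kind for 31.9%. In ZS97 the shares were 52.6% of 643 runs with active anchors on both sides, 19.8% with H3K9me2 on both sides, and 27.7% with 1 of each kind. Of the ZS97 runs of 4 bins or more, 6 of 62 had H3K9me2 on both sides, 27 had it on 1 side and 29 had active anchors on both sides. In MH63 the counts for 73 such runs were 16, 27 and 30.

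Bins next to a run held fewer anchors than other bins with an anchor, and more often anchors of a single target. The median number of anchors was 2 in the 1222 MH63 bins next to a run and 3 in the other 4696 bins with an anchor. In ZS97 it was 2 in the 1212 bins next to a run and 4 in the other 4529. RNAPII was present in 43.5% of MH63 bins next to a run and 59.5% of the others, and in ZS97 in 37.4% of bins next to a run and 52.2% of the others. H3K9me2 was the sole target in 32.7% of MH63 bins next to a run and 24.6% of the others, and in ZS97 in 28.1% of bins next to a run and 24.6% of the others. H3K4me3 was the sole target in 19.3% of MH63 bins next to a run and 10.2% of the others, and in ZS97 in 28.6% of bins next to a run and 14.5% of the others.

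The bin next to a run always held an anchor, because the run ended there, and the second bin out also lacked one less often than bins in general. At 100 kb from a run edge, 14.6% of MH63 and 11.96% of ZS97 bins had no anchor, against 17.7% of all MH63 and 17.2% of all ZS97 bins. From 150 to 500 kb the share was above that of all bins at every step, between 21.0 and 25.9% in MH63 and between 21.1 and 24.1% in ZS97. RNAPII anchors were present less often than in all bins at every step from 50 to 500 kb. They were in 38.5 to 42.6% of MH63 and 33.1 to 38.9% of ZS97 bins, against 46.2% of all MH63 and 40.6% of all ZS97 bins. The shares of all bins pool the chromosomes, whereas chromosome 11 alone held 90 of 660 MH63 runs and 606 of 7190 MH63 bins. The part of the chromosome in these differences was not tested, and a bin near several runs was counted for each. H3K4me3 anchors were present in 52.7% of MH63 and 64.4% of ZS97 bins at 50 kb. Over all bins, which include those without an anchor, the share was 51.7% in MH63 and 57.9% in ZS97. Among bins with an anchor it was higher, at 62.8% in MH63 and 69.97% in ZS97. H3K4me3 anchors were thus less frequent beside a run than in bins with an anchor. From 150 to 500 kb they were less frequent than in all bins, in 41.8 to 47.2% of MH63 and 51.4 to 54.8% of ZS97 bins. H3K9me2 anchors were present in 44.3% of MH63 and 40.0% of ZS97 bins at 50 kb. The like share of bins with an anchor was 44.5% in MH63 and 43.8% in ZS97, so H3K9me2 anchors were not more frequent beside a run. Over all bins, which include those without an anchor, H3K9me2 anchors were present in 36.7% in MH63 and 36.2% in ZS97. From 150 to 500 kb they were present in 36.3 to 38.9% of MH63 and 33.2 to 37.1% of ZS97 bins, ranges that include the share of all bins.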

How the data were processed

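Loop lists of 12 long-read ChIA-PET libraries, joined by variety and target into 6 lists, were used. The authors used an updated ChIA-PET Tool, version not given in the sources used here, to trim linkers, align MH63 tags to the MH63 genome and ZS97 tags to the ZS97 genome, both from RIGW, drop redundant PETs and pool the replicates. The genome releases are not given in the sources used here. ChIP-seq peaks extended on both sides served as anchors, and intrachromosomal clusters with an FDR under 0.05 and a minimum PET count were deposited. The deposited PET count of a loop is a raw count, not scaled to depth. The deposited p-value column was not used, and the deposited FDR, an adjusted p-value, was used only for an alternative with an FDR of at most 0.01. Which column holds the FDR was read from the order of the columns and from the methods.

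Bins of 50 kb, runs of adjacent bins, spanning loops and the nearest anchors were computed with pandas 2.3.3 and numpy 2.4.6 under Python 3.11.15. Intervals came from scipy 1.17.1, and figures were drawn with matplotlib 3.10.9. Loop length ran from the first base of the left anchor to the last base of the right anchor. A bin lay near an end when its midpoint was within 2 Mb. Shares carry Wilson 95% intervals, and no test was made, since no list has replicates and the bins were chosen by the anchors. The members and lists were chosen with earlier results of these data known. The regions named were, in each variety, the 5 longest runs, the longest run no loop spans, the bin under the most loops of each target, the loop of each list with the highest PET count over such a bin, and the chromosomes with the highest and lowest share; other chromosomes, and parts of chromosomes, were singled out after their values were seen. Alternatives were PET counts of at least 6 and 10, bins of 25 and 100 kb, shifted bins, anchor midpoints, leaving out each list, the stricter FDR, loops of up to 1 Mb, other end windows and RNAPII loops without overlapping anchors. Spanning loops of at least 6 PETs over the bins as reported were added after seeing the data. The bin, run and edge calculations were tested on simulated data, in which 945 of 945 bins and 247 of 247 run edges were recovered. No gene annotation or genome sequence of these builds was used, so genes, repeats and mappability in the bins were not analysed here.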

Additional observations from a re-analysis of the deposited data

How the results depend on the processing

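The replicates were joined in the deposited lists, so neither could be left out, and a bin without an anchor holds no called loop end, which is not the same as having no contacts. No paired analysis was possible because the lists carry no replicates. Of 140 values under other settings, 59 stayed within the interval of the reported value (for run length, within 1.5 times) and 81 did not. Shifting the bins by 25 kb moved none of the 16 results, and leaving out RNAPII loops with overlapping anchors, run only for the share without an anchor and the longest run, moved neither. No cause of the changes was tested beyond what the settings themselves impose.

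With at least 6 PETs in all lists, bins without an anchor were 33.3% in MH63 and 27.8% in ZS97, the longest run was 950 and 1300 kb, and H3K9me2 was nearest at 28.5% and 29.4% of run edges. H3K4me3 loops then spanned 12.5% in MH63 and 8.15% in ZS97, RNAPII loops 88.1% in MH63, H3K9me2 loops 78.5% and 80.2%, and no loop 2.76% and 5.45%. With at least 10 PETs, the share without an anchor was 54.0% in MH63 and 47.3% in ZS97, the longest run 2550 and 1900 kb, the share within 2 Mb of an end 13.9% and 13.9%, and H3K9me2 nearest at 24.2% and 27.2%. H3K4me3 loops then spanned 0% in MH63 and 0.365% in ZS97, RNAPII loops 56.1% and 80.7%, H3K9me2 loops 33.2% and 55.7%, and no loop 31.1% and 11.5%.

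Bins of 100 kb gave 8.25% without an anchor in MH63 and 7.75% in ZS97, H3K9me2 nearest at 43.0% of MH63 run edges, and 72.5% spanned by H3K4me3 loops in ZS97. Bins of 25 kb gave 29.5% without an anchor in MH63 and 28.9% in ZS97, 83.8% (MH63) and 80.2% (ZS97) spanned by H3K4me3 loops, and H3K9me2 nearest at 31.7% in MH63. Anchor midpoints gave 21.2% in MH63 and 19.9% in ZS97. An FDR of at most 0.01 gave 19.5% in MH63 and 18.7% in ZS97, with 70.7% (MH63) and 72.1% (ZS97) spanned by H3K9me2 loops. Without the H3K4me3 list the share was 27.6% in MH63 and 31.7% in ZS97, with a longest run of 1300 and 1000 kb. Without the RNAPII list it was 22.8% in MH63 and 19.6% in ZS97. Without the H3K9me2 list it was 39.3% in MH63 and 38.2% in ZS97, with a longest run of 2150 and 1650 kb. Windows of 1 Mb held 4.32% of the bins in MH63 and 4.77% in ZS97, and windows of 5 Mb held 30.0% in MH63 and 34.5% in ZS97.

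With loops of up to 1 Mb, H3K4me3 loops spanned 4.32% in MH63 and 7.95% in ZS97, RNAPII loops 40.3% and 28.9%, H3K9me2 loops 23.2% and 21.6%, and no loop 40.7% and 49.7%. Both settings chosen after seeing the data kept the bins and asked for at least 6 PETs of the spanning loops. For loops of any length, H3K4me3 loops then spanned 12.2% in MH63 and 7.78% in ZS97, RNAPII loops 86.9% in MH63, H3K9me2 loops 81.1% and 80.5%, and no loop 2.52% and 5.36%. For loops of up to 1 Mb the values were 0.0786% in MH63 and 1.09% in ZS97 for H3K4me3, 20.2% and 28.9% for RNAPII, 9.83% and 12.8% for H3K9me2, and 70.9% and 60.2% for no loop.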

Other observations

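Without the bin grid, stretches between neighbouring anchors were measured to the base. MH63 had 1143 anchor-free stretches of at least 50 kb, covering 121.4 Mb or 33.8% of the binned genome, and ZS97 had 1072, covering 112.9 Mb or 32.6%. Of these, 660 in MH63 and 646 in ZS97 held a whole bin of the grid, 57.7% and 60.3% of them, so a stretch of this length often went unseen by the bins. Stretches of at least 500 kb numbered 3 in MH63 and 3 in ZS97. Anchor-free stretches of any length covered 74.1% of the binned genome in MH63 and 75.7% in ZS97, with a median of 6.02 kb and 5.91 kb.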
